A study of Mus musculus with 14 samples.

Results

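The measurements described here cover the first hour after transcription was blocked in 3T3 cells, an established mouse fibroblast line. Each measured feature is an mRNA 3' end, the position at which a transcript is cut and given its poly(A) tail. The ends were taken where the authors' read filter was passed and the 2 control libraries together held at least 60 reads, which left 13418 of 33590 annotated ends (39.9%). Every end with that many control reads also passed the filter. Both control libraries were set against the single library of cells treated for 1 h with actinomycin D (final concentration 10 µg/ml), and the libraries of 2, 4 and 8 h of treatment served only to follow the ends further. All 6 libraries were made by 2P-Seq from poly(A)-selected RNA: partial RNase T1 digestion, reverse transcription primed on the poly(A) tail, circularisation, and sequencing from the tail. The series lists 14 samples in all. The labels do not say whether the controls were separate cultures, or whether they received a vehicle. No genotype or strain is given for the line. Gene names were not assigned, because the positions are in the mm9 build and the annotation at hand is of another build, so each end is named by chromosome, strand and mm9 position, and the labelled cell type was not checked against marker genes. For the same reason it was not determined whether an end lies in an exon, an intron or a UTR.

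Actinomycin D binds DNA and stops RNA polymerase, so that the mRNA already present decays without being replaced. In growing fibroblasts the mRNAs known for the quickest turnover encode transcription factors, growth-response regulators and secreted signalling proteins, whereas those for matrix proteins, the cytoskeleton and the translation machinery are known to persist. Decay usually starts with shortening of the poly(A) tail, and 2P-Seq reads only RNA that still carries a tail.

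Read totals were similar in the 3 libraries of the comparison, 5843403 and 6433503 in the controls and 6111232 at 1 h. The selected ends took 98.0%, 97.9% and 98.1% of these reads. Counts were divided by the factor the authors give for each library (0.931, 1 and 0.922), and the quotient is called scaled reads below. On that scale the selected ends summed to 6150410 and 6300710 in the controls and 6502520 at 1 h, and these sums depend on the authors' factors. Loss of the tail and loss of the mRNA cannot be told apart here, nor can less mRNA in every cell and loss from some of the cells. With 1 treated library there is no replicate error on the treated side, and no p-value is given. The ratio of control 1 to control 2 at the same ends served as the measure of noise.

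After 1 h, 49.9% of the 3' ends were close to their control level, and far more ends were 2-fold below both controls than 2-fold above both. An end was called lost when the 1 h value was at or under 0.5 times the lower control, risen when it was at or over 2 times the higher control, and held when it was neither under 0.8 times the mean of the controls nor over that mean divided by 0.8. Of the 13418 ends, 1061 were lost (percent called 7.91, Wilson 95% interval 7.46 to 8.38), 6697 were held (49.9) and 11 were risen (0.082). The interval takes ends as independent and does not cover differences between libraries or in scaling. The other 5649 were intermediate: 3372 lay under the band for held ends and 2277 over it. The number of lost ends rests in part on the use of both controls, since 1615 ends were at or under 0.5 times control 2 alone (without control 1) and 1417 at or under 0.5 times control 1 alone.

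The median log2 ratio of 1 h to the control mean was -0.07 (0.5 reads added to each count), with the middle 50% of ends between -0.48 and 0.22. The same quantity between the controls had a median of -0.09 and a middle 50% between -0.41 and 0.19. The middle 50% was thus somewhat wider at 1 h on both sides, and the tails differed in opposite directions. At the 1st percentile the log2 ratio was -2.91 for 1 h against the control mean and -1.44 for control 1 against control 2. At the 99th percentile the values were 0.82 and 1.15. A ratio to the mean of 2 libraries carries less noise than a ratio of single libraries, so single libraries were also compared.

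**Figure D1:**
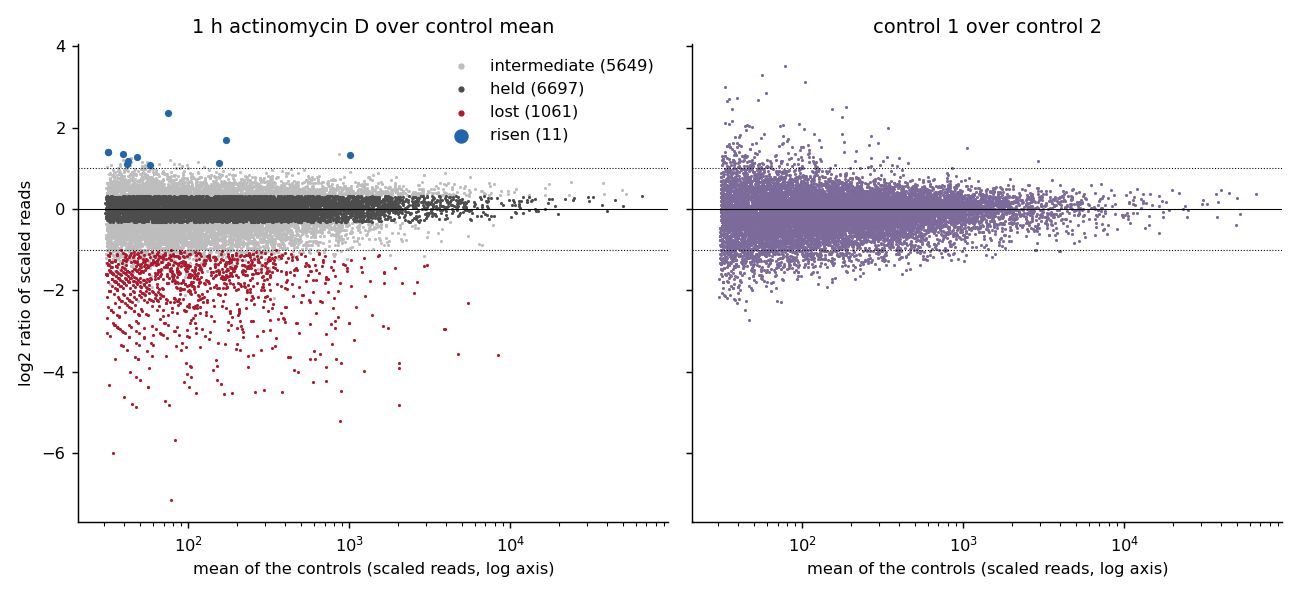
Log2 ratio of scaled reads (vertical axis) against the mean of the controls in scaled reads (horizontal log axis) for 13418 3' ends, 1 point an end. The left panel plots 1 h of actinomycin D over the control mean, coloured by class, with 1061 lost and 11 risen ends; the right panel plots control 1 over control 2. Dotted lines mark 2-fold. Points far below the lower line appear on the left only, down to a log2 ratio of -7.17, while the right panel reaches -2.72 and 3.52.

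Compared library by library, the gap between treatment and noise opened with the size of the fall. Control 1 was at least 2-fold under control 2 at 692 ends (5.16%) and at least 2-fold over it at 202 (1.51%), together 894 ends (6.66). The 1 h library was at least 2-fold under control 1 at 1408 ends (10.5%) and under control 2 at 1594 (11.9%). At 4-fold the counts were 378 and 377 ends for 1 h, against 17 ends with control 1 under control 2 and 23 the other way. At 8-fold they were 122 and 113, against 0 and 3. At 16-fold they were 40 and 28, and 0 ends separated the controls in either direction. A fall of 2-fold at a single end is thus of a size also seen between the controls, whereas a gap of 8-fold separated the controls at 3 ends.

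Rises had no such excess. The 1 h library was at least 2-fold over control 1 at 435 ends (3.24%) and over control 2 at 89 (0.663%), fewer than the 692 ends at which control 2 exceeded control 1 that much and the 202 at which control 1 exceeded control 2. At 4-fold, 6 and 1 ends were higher at 1 h, against 17 and 23 between the controls.

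**Figure D2:**
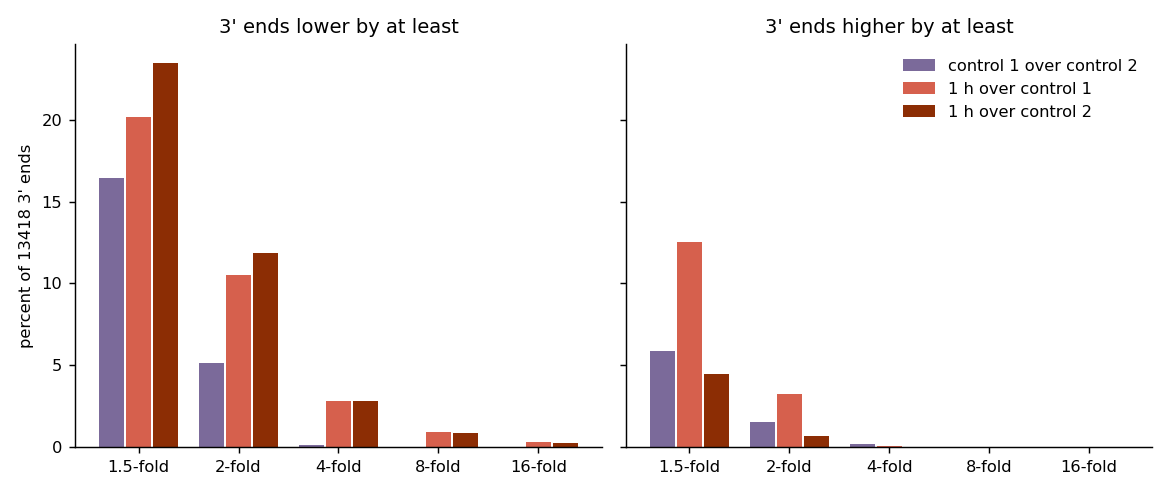
Percent of 13418 3' ends (vertical axis) that differ by at least the fold on the horizontal axis, lower on the left and higher on the right, for control 1 over control 2 and for 1 h over each control. From 4-fold on, lower ends are 2.82% and 2.81% of all at 1 h against 0.127% between the controls, and higher ends are at most 0.171% in all 3 comparisons.

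Noise depended on how many reads an end had. The SD of the log2 ratio between the controls fell from 0.71 at ends with 60 to 99 control reads (2164 ends) to 0.34 at ends with 1000 or more (2451 ends). The controls were 2-fold apart at 16.3% of the former and 1.59% of the latter. Lost ends made up 11.6% of the low group and 3.96% of the high group, where 97 ends were lost and only 39 had controls 2-fold apart. The median ratio of 1 h to the controls also moved with the level, from -0.18 in the low group to 0.06 in the high group, and the control ratio moved beside it, from -0.15 to -0.00. Ends were required to have reads in the controls and not in the 1 h library, and the part of this requirement in the low group was not tested.

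As a yardstick matched for level, the ratio of 1 h to control 2 was set against the 1st and 99th percentile of the ratio of control 1 to control 2 in 5 groups of ends by control reads. By construction 1% of ends lie past each limit when control 1 takes the place of the 1 h library. At 1 h, 806 ends (6.01%) lay under the lower limit and 74 (0.551%) over the upper limit. With control 1 as the reference the counts were 1403 (10.5%) and 109 (0.812%). Falls were thus more frequent than the 1% between the controls, and rises less frequent. In the group with 1000 or more reads, 46 ends (1.88%) were over the upper limit against control 1 and 20 (0.816%) against control 2.

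Lost ends held little of the mRNA. They took 4.00% and 3.79% of the scaled reads of the selected ends in the controls and 0.976% at 1 h, a drop from 246274 and 238867 scaled reads to 63482. Held ends took 63.5% and 61.4% in the controls and 62.8% at 1 h. The median lost end had 194 control reads, against 367 for held ends. Of the 1061 lost ends, 281 (26.5%) were at least 4-fold under the lower control, 88 (8.29%) at least 8-fold, 28 at least 16-fold and 7 at least 32-fold. Only 2 had 0 reads at 1 h and 24 had 3 or fewer, so few losses ended at the counting floor of 3 reads. The lost ends fell in 915 loci, a locus being a run of ends on a strand each within 2000 nt of the next, of 9274 loci with a measured end.

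The deepest losses among well-measured ends left 2.71% to 5.61% of the lower control. Among ends with at least 200 control reads, counting the most abundant lost end of each locus, the lowest ratio was at chromosome 17 (minus strand, 26642536). It held 903 and 839 scaled reads in the controls and 22.8 at 1 h, which is 2.71% of the lower control (exact 95% interval 1.67 to 4.18). The controls differed there by 1.08-fold, and the 1 h value lay far under both. Intervals of this kind take reads as independent molecules and cover counting error only; PCR reads are not independent. The end went on to 18.0, 9.06 and 2.53 scaled reads at 2, 4 and 8 h.

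An end on chromosome 3 (minus strand, 145309941) started higher, at 2244 and 1803 scaled reads, and held 71.6 at 1 h, 3.97% of the lower control (3.06 to 5.08). It did not keep falling: the next 3 libraries held 14.8, 32.8 and 37.9. The end on chromosome 10 (plus strand, 98730117) likewise levelled off. Its controls held 676 and 760 scaled reads, and the later libraries 38.0, 42.3, 22.6 and 32.9, so that nearly the whole fall was over by 1 h (5.61%, interval 3.87 to 7.89). By contrast, the end on chromosome 13 (plus strand, 111191048) went from 946 and 827 to 39.0 at 1 h and then 30.7, 19.2 and 6.32 scaled reads.

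Of the deepest losses, 5 had 0 reads by 8 h. On chromosome 12 (minus strand, 56590397) the controls held 198 and 174 scaled reads, the 1 h library 7.59 and the 2 h library 6.34, and at 4 and 8 h there were 0 reads, a count that allows up to 3. On chromosome 11 (minus strand, 118899752) the values were 192 and 140, then 6.51 at 1 h and 6.34 at 2 h, with 0 reads at 4 and 8 h. The end at 42403357 on chromosome 13 (plus strand) went from 163 and 138 to 7.59 at 1 h and 3.17 at 2 h and had 0 reads from 4 h. These 3 ends had 4.36%, 4.65% and 5.50% of the lower control left at 1 h, with upper interval limits of 9.18, 10.4 and 11.6%.

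The remaining 3 of the 10 ends were at chromosome 8 (plus strand, 112748193, 4.21% left, interval 1.12 to 11.1), chromosome 8 (plus strand, 74845247, 4.54% left, interval 2.52 to 7.60) and chromosome 4 (minus strand, 151363740, 5.06% left, interval 2.00 to 10.7). The controls of the 10 ends differed by 1.08- to 1.37-fold, so every fall was many times the spread between the controls. Of the 10, 9 were the only measured end of their locus, as were 324 of the 512 lost ends with at least 200 control reads. The 10 were picked at 1 end per locus, which raises that share. The authors' estimate of ribosomes per mRNA, from their sucrose gradient, ran from 4.64 to 8.15 over the 10 ends.

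Some abundant mRNA ends were also lost within the hour. The most abundant lost end lay on chromosome 10 (plus strand, 21719705), with 8576 and 8166 scaled reads in the controls. It held 694 at 1 h, 8.50% of the lower control (7.83 to 9.21), then 203, 121 and 59.4 at 2, 4 and 8 h. Its controls differed by 1.05-fold. On chromosome 10 a second abundant end (plus strand, 17445471) went from 4106 and 3712 scaled reads to 502 at 1 h (13.5%, interval 12.3 to 14.9) and 61.3 at 2 h, so its fall from 1 to 2 h was as steep as that in the first hour.

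The end on chromosome 5 (minus strand, 125866346) fell from 5394 and 5483 scaled reads to 1096 (20.3% of the lower control, interval 19.0 to 21.8), then to 309, 250 and 148. Another on chromosome 17 (plus strand, 29237666) fell less, from 2977 and 3060 to 1162 (39.0%, interval 36.4 to 41.9), and reached 588, 362 and 162 at the later times. In all 4 abundant ends the controls lay within 1.11-fold of each other, and the 1 h value was outside their range by 2-fold or more, as the class rule requires.

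The class limit cuts a continuous distribution. Just inside it, the ends on chromosome 2 (minus strand, 35937479) and chromosome 10 (plus strand, 39374628) had 49.99% and 49.88% of the lower control left. Just outside, the ends on chromosome 18 (minus strand, 80604703) and chromosome 7 (minus strand, 100006038) had 50.03% and 50.16%. Their counting intervals, 34.8 to 71.1% for the first and 42.4 to 58.9% for the third, reach across the limit.

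The most abundant held ends, ranked within the held class only, lay near or between their controls at 1 h. At chromosome 19 (minus strand, 34316013) there were 73506 and 57297 scaled reads in the controls and 81635 at 1 h, 1.11 times the higher control. Its controls differed by 1.28-fold, which is more than the step from the higher control to 1 h. The ends on chromosome 2 (plus strand, 13504452; 54220 and 45424, then 52146), chromosome 15 (plus strand, 76736741; 41540 and 32225, then 39142) and chromosome 17 (minus strand, 71343637; 46027 and 33227, then 38098) lay between their controls at 1 h. That on chromosome 3 (plus strand, 90418335) lay at 1.02 times its higher control.

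Among these 6, the end on chromosome 11 (plus strand, 48619586) had the largest step beyond its controls. It held 33827 and 31059 scaled reads in the controls and 39863 at 1 h, 1.18 times the higher control, with a counting interval of 1.16 to 1.20. The controls of the 6 ends differed by 1.09- to 1.39-fold. At such levels the counting interval is far narrower than the difference between the controls, so the interval is not the error that limits these values.

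**Figure D3:**
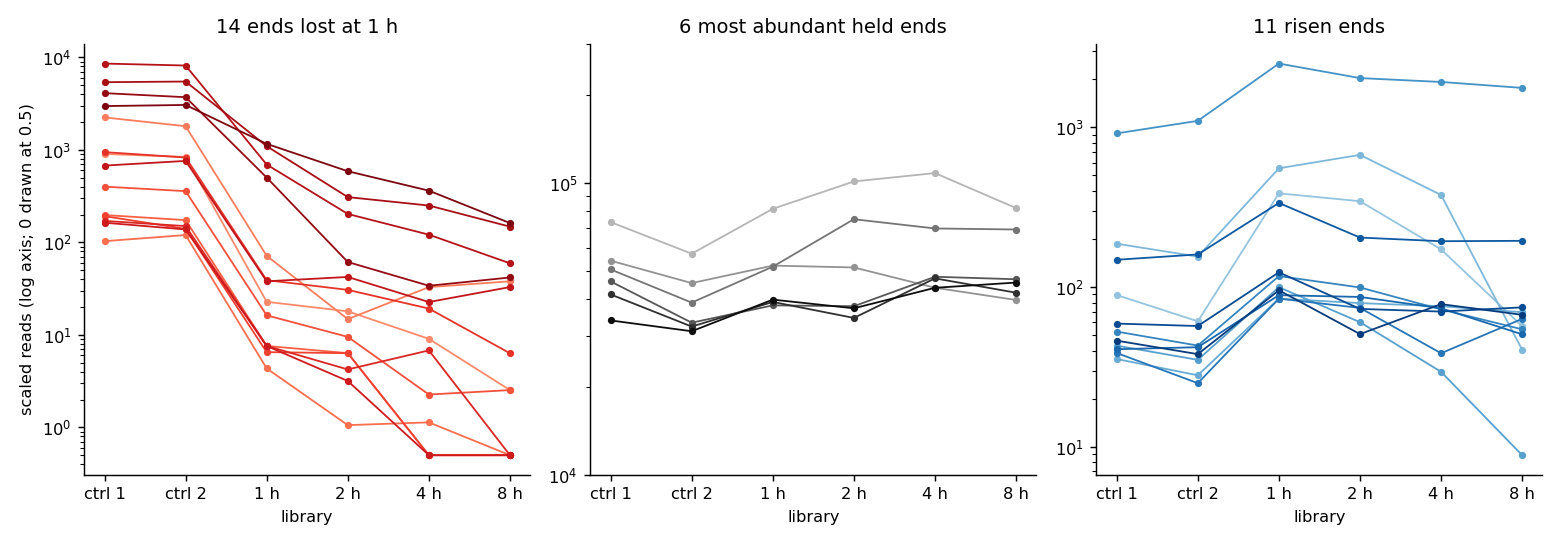
Scaled reads (vertical log axis, 0 drawn at 0.5) in the 2 controls and after 1, 2, 4 and 8 h of actinomycin D, 1 line an end. The left panel has the 10 deepest and the 4 most abundant other lost ends, the middle panel the 6 most abundant held ends and the right panel all 11 risen ends. All 14 lost ends drop between the controls and 1 h, as the class rule requires, and held ends stay between 31059 and 108267. Of the 11 risen ends, which were selected for high 1 h values, 10 are lower at 2 h than at 1 h.

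Only 3 of the 8285 ends with at least 200 control reads were risen. On chromosome X (plus strand, 54046514) the controls held 917 and 1098 scaled reads and the 1 h library 2508, 2.28 times the higher control (exact 95% interval 2.13 to 2.46). It then held 2034, 1924 and 1766, above both controls throughout. On chromosome 9 (plus strand, 64143873) the values were 187 and 155 in the controls and 554 at 1 h, 2.97-fold over the higher control (2.49 to 3.54), then 672, 377 and 40.5. The third, on chromosome 11 (minus strand, 51414579), was 1 of 6 measured ends of its locus and rose from 148 and 160 to 336 (2.10-fold, interval 1.73 to 2.56), falling to 204 by 2 h.

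All 11 risen ends are named by position or range here, though 8 of them had under 200 control reads and were looked up after their values were seen. The largest ratio among all selected ends was at chromosome 11 (plus strand, 116938749): 89.1 and 61 scaled reads in the controls, 386 at 1 h (4.33-fold over the higher control, interval 3.40 to 5.57), then 345, 172 and 56.9. The ends on chromosome 7 (minus strand, 31817748), chromosome 2 (minus strand, 74359389), chromosome 17 (minus strand, 79253849), chromosome 8 (plus strand, 86247249), chromosome 19 (plus strand, 26852809), chromosome X (plus strand, 53914914) and chromosome 5 (minus strand, 92873014) rose 2.07- to 2.39-fold over the higher control. Of the 11 ends, 6 had under 100 control reads. By 2 h, 10 of 11 were lower than at 1 h, and at 8 h 8 of 11 were still above both controls. The class selects for high values in the single 1 h library, which can by itself make the 2 h value lower. The size of that effect was not tested. The count of risen ends is small and moved under several choices: it is 91 against control 2 alone (without control 1) and 443 against control 1 alone (without control 2), and 22 with TMM scaling, while library totals gave 9.

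The 2 ends with the largest rises shared a property that the classes did not use. The authors' gradient gave 0.159 ribosomes per mRNA for the end on chromosome 11 (plus strand, 116938749) and 0.170 for that on chromosome 9 (plus strand, 64143873), against a median of 6.47 over all selected ends. Only 19 selected ends had an estimate under 1, a limit chosen after these values were seen. Of these 19, 8 were above both controls at 1 h, 5 were below both, 2 were risen and 3 were lost. Over all selected ends, 30.4% were above both controls, 41.8% below both, 0.082% risen and 7.91% lost. The controls were at least 1.5-fold apart at 10 of the 19 ends. The SD of the log2 control ratio was 0.76 for the 19 against 0.51 for all ends.

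Ends with an estimate under 1 ribosome thus went both ways, and those below both controls at 1 h had estimates of 0.418 or more. On chromosome 7 (plus strand, 29136652, 0.0382 ribosomes per mRNA) scaled reads were 96.6 and 56 in the controls and 177 at 1 h, then 136, 52.1 and 25.3. On chromosome 5 (plus strand, 72641983, 0.418 ribosomes) they fell from 165 and 171 to 16.3 at 1 h, 9.84% of the lower control (5.38 to 16.7). On chromosome 8 (plus strand, 93409963, 0.793 ribosomes) they went from 390 and 632 to 118 and stayed between 113 and 159 afterwards. On chromosome 15 (minus strand, 36538656, 0.913 ribosomes) the controls disagreed, 4017 against 1778; the 1 h library held 1307, below both, and the later ones 4997, 13923 and 23759.

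Over the whole range of ribosome estimates, losses were most frequent in the middle, apart from the 19 ends under 1 ribosome, of which 3 were lost (15.8%). Of ends with 5 to 7 ribosomes per mRNA, 643 of 5830 were lost (11.0%), with 3 to 5 ribosomes 173 of 2368 (7.31%) and with 7 to 9 ribosomes 231 of 4459 (5.18%). At the outer levels it was 6 of 273 ends with 1 to 3 ribosomes (2.20%) and 5 of 468 with 9 or more (1.07%). Restricting to ends with at least 200 control reads gave the same order, with 9.15% lost at 5 to 7 ribosomes, 5.10% at 3 to 5, 3.91% at 7 to 9, 1.82% at 1 to 3 and 0.909% at 9 or more. The median estimate was 6.22 for lost ends (middle 50% 5.40 to 6.93), 6.56 for held ends (5.32 to 7.66) and 7.29 for the 11 risen ends. The estimates are the authors' own and exist for 13417 of the ends; the shares are descriptions, with no test.

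**Figure D4:**
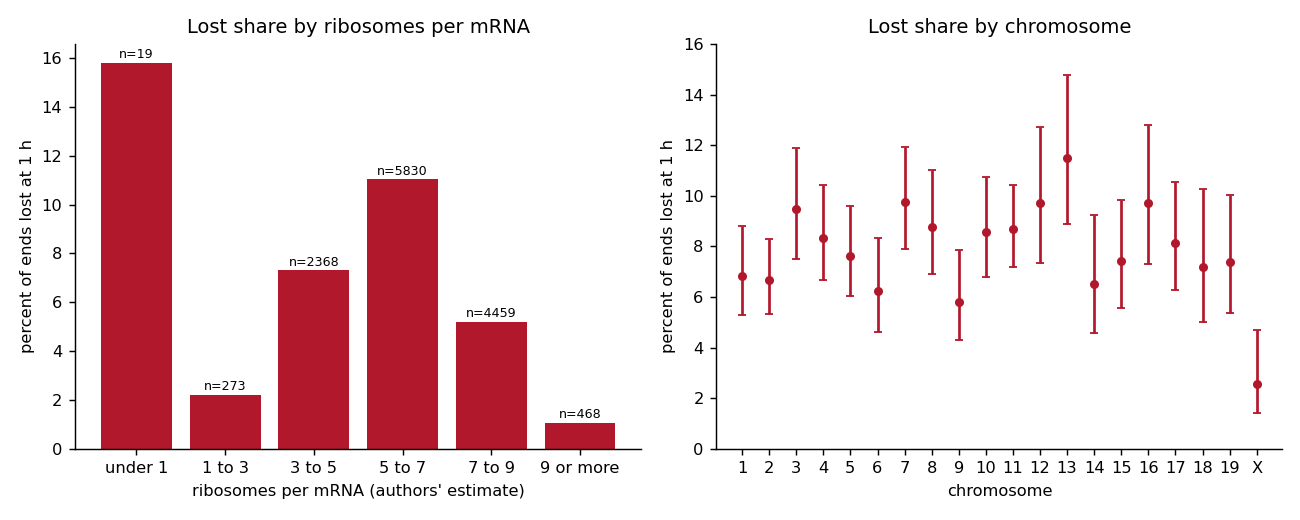
Percent of 3' ends lost at 1 h (vertical axes). The left panel groups ends by the authors' ribosomes per mRNA, with the number of ends above each bar; the right panel groups them by chromosome, with Wilson 95% intervals that take ends as independent. The bar for 5 to 7 ribosomes reaches 11.0% and that for 9 or more 1.07%, the bar for under 1 rests on 19 ends, and chromosome X is lowest at 2.58%.

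Chromosome X stood apart from the autosomes, a comparison made after the shares by chromosome were seen. Of its 388 ends, 10 were lost (2.58%, Wilson 95% interval 1.41 to 4.68, with ends taken as independent), against 5.81% to 11.5% on the 19 autosomes. The 1 h library was above both controls at 45.9% of X ends and 29.9% of autosomal ends. The median log2 ratio of 1 h to the control mean was 0.18 on X and between -0.13 and -0.01 on single autosomes. The controls also differed on X: the median log2 ratio of control 1 to control 2 was -0.27 there and between -0.20 and 0.01 on single autosomes. Against control 2 alone, the median at 1 h was 0.04 on X and between -0.18 and -0.05 on the autosomes. The part of the difference between the controls in the X values was not tested.

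Ratios that use no control placed X at the same edge. The median log2 ratio of 4 h to 2 h was -0.26 on X and between -0.46 and -0.32 on single autosomes, and that of 8 h to 2 h was -0.66 on X and between -1.15 and -0.81. Ends on X had a median of 250.5 control reads against 296 on autosomes, and a median of 6.94 ribosomes per mRNA against 6.45. By control reads, the share lost on X and on autosomes was 5.71% and 11.8% at 60 to 99 reads, 3.13% and 10.3% from 100 to under 200, and 2.80% and 8.25% from 200 to under 500. At 500 to under 1000 reads 0 of 51 X ends were lost, which allows up to 5.88%, against 5.62% of autosomal ends. At 1000 or more it was 0 of 64, which allows up to 4.69%, against 4.06%. In these 2 groups no difference in the share lost was detectable. The median log2 ratio of 1 h to the control mean did differ there. It was 0.28 on X and -0.03 on autosomes at 500 to under 1000 reads, and 0.29 and 0.06 at 1000 or more. The median control ratio was -0.35 on X and -0.05 on autosomes in the former group, and -0.05 and -0.002 in the latter.

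Ends alone in their locus were lost more often than ends of loci with several measured ends. Of 6477 ends alone in their locus, 639 were lost (9.87%, Wilson 95% interval 9.16 to 10.6). The share was 7.41% of 3754 ends in loci with 2 (6.61 to 8.29), 4.87% of 1869 ends in loci with 3 (3.98 to 5.94) and 4.02% of 1318 ends in loci with 4 or more (3.09 to 5.22). With at least 200 control reads the shares were 7.63%, 5.54%, 3.86% and 3.23%. These intervals take ends as independent, and ends of a locus are not. Of 2797 loci with 2 or more measured ends, 276 had at least 1 lost end, 101 had all their ends lost, and 56 had both a lost and a held end. Counted by locus, the 276 of 2797 stand against 639 of 6477 loci with a single end. These 2 shares are not like measures, because a locus with several ends has more ends that can be lost.

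Neighbouring ends of a locus moved together in the first hour, and less so with distance. For the 2 most abundant measured ends of each of the 2797 loci, the log2 ratios of 1 h to the controls had a Pearson r of 0.68 across pairs. It was 0.82 for 972 pairs under 100 nt apart, 0.69 for 782 pairs from 100 to under 500 nt, and 0.53 both for 401 pairs from 500 to under 1000 nt and for 642 pairs at 1000 nt or more. The ratio of control 1 to control 2, which holds no treatment, was also shared, with r of 0.61, 0.39, 0.35 and 0.30 at the same distances. Both ends of a pair come from the same libraries, and r is given as a description without a p-value.

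In 249 pairs at least 1 end was lost, and in 106 of these (42.6%) both were. This share was 61.2% of 85 pairs under 100 nt and 26.6% of 64 pairs at 1000 nt or more. Where only 1 end was lost, in 143 pairs, the partner was intermediate in 109, held in 34 and risen in 0. The partner lay below the control mean in 120 of the 143, with a median log2 ratio of -0.66 against -0.07 over all ends. The distal end, the one farther from the 5' side, was lost with a held proximal end in 19 pairs, and the reverse was seen in 15.

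**Figure D5:**
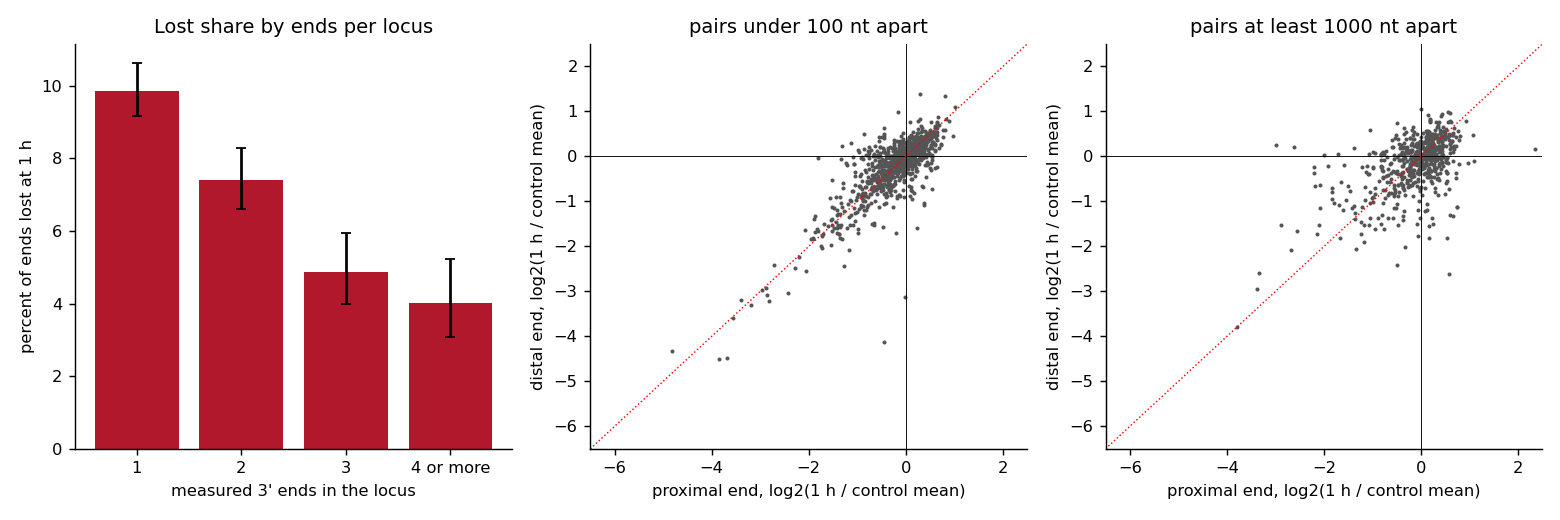
Left, percent of 3' ends lost at 1 h (vertical axis) by the number of measured ends in the locus, with Wilson 95% intervals that take ends as independent; it falls from 9.87% to 4.02%. Middle and right, log2 ratio of 1 h to the control mean of the distal end (vertical axis) against that of the proximal end (horizontal axis), 1 point a pair, for 972 pairs under 100 nt apart and 642 pairs at least 1000 nt apart; the dotted diagonal marks equal change, and points lie closer to it in the middle panel.

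In the median pair the balance between distal and proximal ends hardly moved in 1 h. The median change of the log2 distal/proximal ratio from the mean of the controls was -0.00, with the middle 50% of pairs between -0.26 and 0.24. Its SD was 0.51, and the SD of the difference between the controls was 0.54. A difference from the mean of 2 controls carries less noise than one between single libraries. The 2 SDs are therefore not like measures. The ratio was at least 2-fold under both controls in 43 of 2797 pairs (percent called 1.54) and at least 2-fold over both in 36 (1.29). Between the controls themselves it differed at least 2-fold in 189 pairs (6.76%), a laxer comparison because it sets single libraries against each other. Against a single control the counts were 98 and 75 without control 1 and 96 and 134 without control 2, so which direction is more frequent depends on the control. Pairs called lower and higher were 0.720% and 0.514% of those under 100 nt apart and 2.96% and 2.18% of those at 1000 nt or more. The controls also differed more with distance. Their ratios were at least 2-fold apart in 3.19% of pairs under 100 nt and in 9.66% at 1000 nt or more. The part of this noise in the rise of the called shares was not tested.

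The distal/proximal ratio fell furthest beyond both controls on chromosome 10 (plus strand, proximal 24317514, distal 24318485, 971 nt apart). Of all reads of both ends, 93.4% and 92.9% came from the distal end in the controls and 59.6% at 1 h (Wilson 95% interval 53.6 to 65.2). Scaled reads of the distal end fell from 1023 and 575 to 176, while those of the proximal end went from 71.9 and 44 to 119. The share went on to 31.2%, 22.7% and 19.4% at 2, 4 and 8 h, so the pair kept moving in 1 direction.

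A pair on chromosome 19 (minus strand, 5795999 proximal and 5795690 distal) had controls that disagreed, with distal shares of 72.8% and 90.3%, and stood at 37.7% after 1 h (31.4 to 44.6). The distal end fell from 469 and 951 scaled reads to 83.5, 64.5, 18.1 and 30.3 over 1, 2, 4 and 8 h. Its proximal partner, held at 1 h with 175, 102 and 138 scaled reads in the controls and at 1 h, held 552, 1523 and 2684 at 2, 4 and 8 h. The third pair, on chromosome 10 (plus strand, 80394468 and 80394948), went from 91.2% and 87.8% to 62.0% distal at 1 h (54.9 to 68.5).

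In the other direction the proximal end was the one lost. On chromosome 18 (plus strand, 58104662 and 58106460, 1798 nt apart) the proximal end fell from 90.2 and 49 scaled reads to 10.8 at 1 h, while the distal end held, with 520 and 791 in the controls and 754 at 1 h. Its distal share stood at 85.2% and 94.2% in the controls and at 98.6% after 1 h (97.4 to 99.2). It did not stay: the proximal end was back at 66.6 scaled reads at 2 h and at 104 at 8 h, when the distal share was 52.6%. A pair on chromosome 11 (minus strand, 72949297 and 72948986) went in distal share from 49.2% and 69.0% to 95.8% at 1 h, on 2 proximal and 46 distal reads, and was 52.2% at 2 h. On chromosome 13 (minus strand, 60276185 and 60275773) both ends were lost, the proximal one more, from 448 and 145 scaled reads to 13.0, and the distal one from 2870 and 2369 to 758. Its distal share was 86.5% and 94.2% in the controls, 98.3% at 1 h and 92.7% at 2 h. In all 3 pairs the distal share at 2 h lay between the values of the controls.

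Ends lost in the first hour had the largest median fall of the 4 classes afterwards, in libraries that had no part in the classes. From 2 h to 4 h the median log2 change was -0.78 for lost ends (middle 50% -1.49 to -0.11), -0.44 for intermediate ends, -0.34 for held ends (-0.72 to -0.03) and -0.23 for the 11 risen ends. Many lost ends had few reads by then, and 436 of 1061 (41.1%) had at least 20 reads at 2 h. Over these the median was -0.81, against -0.34 for the 6475 held ends with that many. This minimum selects for high counts at 2 h, the divisor of the ratio, which can lower the ratio. The size of that effect was not tested. The ranges of the classes overlap widely, and 77.0% of lost ends and 77.3% of held ends were lower at 4 h than at 2 h. From 4 to 8 h the medians were -0.71 for lost and -0.49 for held ends. Each time has 1 library, so no test was made.

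Set against the controls, which also formed the classes, the median lost end had 29.8%, 14.6%, 7.64% and 3.48% of the control mean left after 1, 2, 4 and 8 h. The median held end had 102%, 84.3%, 67.3% and 46.4%. The median risen end went from 249% at 1 h to 208%, 178% and 126%. Holding for 1 h therefore did not mean that an end was kept: 25% of held ends had 21.9% or less of their control mean at 8 h.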

How the data were processed

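The table holds read counts per poly(A) site; the authors deposited them as raw counts with a divisor per library, per the file headers. Sites were annotated by the authors from 3P-Seq in 3T3 and mouse embryonic stem cells, per the file headers. Bowtie and the mm9 build are named in the submitters' processing notes, without a version. Ribosomes per mRNA is the authors' deposited estimate, a number of another kind than a count. The 6 per-sample columns of single gradient fractions were left unused.

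Counts were divided by the header's factors (Python 3.11.15, numpy 2.4.6, pandas 2.3.3, scipy 1.17.1), with 0.5 reads added for log2 ratios only. Intervals of ratios are exact (Clopper-Pearson on the reads of 2 libraries). TMM and RLE factors came from edgeR 4.0.16 in R 4.3.3. The class rule was tried on simulated data with changes of 4-fold only. The simulation assumed the same dispersion at every end and no systematic difference between the controls. It therefore does not show how the rule behaves near the 2-fold limit or with the noise of these controls. Ends named singly needed 200 control reads, 1 per locus: the 10 lowest ratios among lost ends, up to 8 risen ends, the 6 most abundant held and 4 further lost ends, 2 ends on each side of the limit, and 3 pairs each way.

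The ends and rules were chosen with earlier results of these data known. The gene lists and markers planned could not be used without gene names in mm9, and are not analysed here.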

Additional observations from a re-analysis of the deposited data

How the results depend on the processing

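No paired analysis was possible because the treated group has 1 library. Shares by chromosome, by ribosomes and by ends per locus with at least 200 control reads, and the minimum of 20 reads at 2 h, were added after seeing the data. Lost ends numbered 1061, and 512 of 8285 with at least 200 control reads, 1615 of 17420 with at least 20, 2040 with a limit of 1.5-fold and 281 with 4-fold; without each control in turn they numbered 1417 to 1615. Risen ends, 11 as reported, numbered 22 with TMM or RLE scaling, 3 and 78 with at least 200 and 20 control reads, 216 with 1.5-fold, 1 with 4-fold, 41 against the control mean, and 91 to 443 without each control. The median log2 ratio, -0.07, became 0.0039 with TMM and 0.0041 with RLE scaling. Pairs with a lower and a higher distal/proximal ratio, 43 and 36, numbered 25 and 23 with ends within 500 nt joined, 8 and 3 of 892 with at least 300 reads per end, and 96 to 98 and 75 to 134 without each control. The median change within pairs was -0.026 to 0.019 without each control. The number of held ends did not move past the limit used under the alternatives run. For the medians by class from 2 h to 4 h and by ribosomes, the limit was the SD across the ends of the class. That limit is wide for a median, so staying within it says little. Without control 1 the median ribosomes per mRNA of risen ends went from 7.29 to 5.61, below lost (6.21) and held (6.59) ends. Without each control the medians from 2 h to 4 h were -0.75 and -0.68 for lost ends and -0.32 and -0.35 for held ends. Limits and read minimums change which ends are counted; the cause of the other moves was not tested. The 14 named lost ends stayed between 2.52% and 39.5% of the nearer control under library totals, TMM and each control alone. Library totals gave 1164 lost and 9 risen ends. Lost ends numbered 958 with TMM scaling, 960 with RLE scaling and 1466 with the 2-fold limit set against the control mean. At 60 to 99 control reads the controls alone were 2-fold apart at 16.3% of ends, so a 2-fold change of a single end there is of the size the controls show between them.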

Other observations

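Among ends with fewer than 60 control reads, 13 had at least 60 reads at 1 h and at least 2 times the higher control, a rule set after seeing the data that selects for high 1 h values, so their ratios are given as values only. The end on chromosome 11 (plus strand, 68887064, mm9) had 11 and 8 reads in the controls and 159, 551, 525 and 264 after 1, 2, 4 and 8 h. In scaled reads, its 1 h value was 14.6 times the higher control, and the authors' estimate for this end is 1.28 ribosomes per mRNA. The end on chromosome 2 (plus strand, 130102109) went from 27 and 12 reads to 203 at 1 h, then to 141, 86 and 51. In scaled reads, 1 h was 7.59 times the higher control there. The authors' estimate for this second end is 0.176 ribosomes per mRNA.

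Ends on the plus and minus strand were lost at like shares, 8.07% of 6799 and 7.74% of 6619.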
